A study of Homo sapiens with 4 samples.

Results

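The genes described here encode the proteins of the mitochondrial ribosome that carry an MRPL (large subunit) or MRPS (small subunit) symbol. They were taken by symbol, MRPL or MRPS followed by a number and at most 1 letter from A to D, which took 76 of the 55764 gene names in the deposited table. Of these, 47 were MRPL genes and 29 were MRPS genes. The study measured RNA in bulk in TE5, a human oesophageal squamous cell carcinoma line, after stable introduction of either a lentiviral vector with ETS1 under a CMV promoter or the empty backbone. There were 2 libraries with ETS1 and 2 control libraries, and the genotype tag of the controls reads WT although the design text gives them the empty backbone. All 4 libraries came from the same line in the same serum-containing RPMI medium. The labels do not say whether the stable cells were a pool or a clone, nor whether the 2 libraries of a group came from separate cultures. The p-values below therefore measure the spread between these libraries, which may be technical.

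The mitochondrial ribosome translates the few proteins encoded by mitochondrial DNA, all of them subunits of the respiratory chain and ATP synthase. Its ribosomal RNAs are transcribed in the organelle, whereas all of its proteins are encoded in the nucleus, made in the cytosol and imported. Some of these proteins descend from bacterial ribosomal proteins and others were added during the evolution of mitochondria, and tumour cells often express them at high levels. ETS1 is a transcription factor of the ETS family, whose members bind DNA around a GGAA core.

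Because many promoters of nuclear genes for mitochondrial proteins hold ETS-type sequences, the letters around the starts of the members were read first. RefSeq promoter windows on GRCh38.p14, from 250 bases before to 50 bases after the annotated start, were available for 67 members, some with more than 1 annotated start and so more than 1 window. The ETS core CCGGAAG, searched on both strands, was present in at least 1 window of 29 of these 67 members (43.3%), against 22.8% of 8924 tested genes and 12.2% of all 27305 genes with a window. The share was 42.5% for MRPL genes and 44.4% for MRPS genes. It was 41.2% (21 of 51) among the members that the test below called lower and 46.2% (6 of 13) among the other tested members. Taking for each of the 27 tested members with a core the one nearest the start, 24 lay within 50 bases of the start and 13 were read on the strand of the gene. To show both ends of the range, 1 site is given for each of the 6 tested members with a core that fell most, followed by the 6 whose change was nearest 0. Each runs 5′ to 3′ on the strand named, on GRCh38.p14, with the core nearest the start in capitals. The MRPS34 stretch ends in a further core, which is left in lower case.
MRPL18 (chr6:159790431-159790457, minus strand): cgccaccgacCCGGAAGtagcaagtcc
MRPL20 (chr1:1407298-1407324, minus strand): aggggctgacCCGGAAGcgctcgtgac
MRPS21 (chr1:150293858-150293884, minus strand): acctagcccaCCGGAAGggttctcact
MRPS33 (chr7:141014936-141014962, plus strand): cgccctcgtcCCGGAAGgcccgccctc
MRPL52 (chr14:22829872-22829898, minus strand): gccggggtagCCGGAAGtaggcgtggc
MRPS12 (chr19:38930929-38930955, plus strand): cggatagcgcCCGGAAGaggctagaag
MRPL16 (chr11:59810768-59810794, plus strand): ctcagtggggCCGGAAGttgtgttcac
MRPL28 (chr16:370515-370541, plus strand): cccaccggaaCCGGAAGccgatctgcc
MRPS16 (chr10:73252623-73252649, plus strand): aacctcgactCCGGAAGcggatgatcc
MRPS18A (chr6:43687806-43687832, minus strand): gcgctacgttCCGGAAGcggaaatgga
MRPL53 (chr2:74472664-74472690, plus strand): gacctccgccCCGGAAGaactcgtgca
MRPS34 (chr16:1773137-1773163, plus strand): agcggtccggCCGGAAGtcaccggaag

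Motifs of other regulators of mitochondrial genes were counted in the same windows and on both strands. The letters AAGATGGCG, part of the sequence bound by YY1, were in windows of 13 members (19.4%), against 4.96% of tested genes. They were in 15.7% (8 of 51) of the members called lower and in 23.1% (3 of 13) of the other tested members. The letters GCGCA, any base and GCGC, which NRF1 binds, were in windows of 8 members (11.9%), against 14.1% of tested genes. These 8 included 7 of the 51 members called lower (13.7%) and 0 of the 13 other tested members. No window held overlapping matches of different motifs, and 43 members held at least 1 of the 3. MRPL41, MRPS2, MRPL24 and MRPL12, which were among the members that fell most, held none of the 3 in their windows. MRPL44, the 1 member that rose, also held none of the 3 in its window. Its stretch from 250 to 60 bases before the start (chr2:223957213-223957403, plus strand, GRCh38.p14), which lies outside annotated exons, is shown for comparison.
MRPL44: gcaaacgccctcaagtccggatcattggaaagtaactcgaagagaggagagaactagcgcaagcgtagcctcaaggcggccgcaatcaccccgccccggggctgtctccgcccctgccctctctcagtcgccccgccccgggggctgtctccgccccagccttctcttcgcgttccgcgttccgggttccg
A match in these windows is a description of the letters and was not tested as a binding site.

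The ETS1 gene itself was higher in the libraries that carried its vector, at 0.491 and 0.509 FPKM in the controls and 1.84 and 1.87 FPKM with ETS1 (log2 change 0.93, SE 0.062, limma adjusted p = 0.000704). The authors' deposited table gives ETS1 a log2 fold change of 1.84. FPKM is fragments per kilobase of gene, scaled to the total of the library, and a log2 change here is on log2(FPKM + 1) unless another scale is named, which understates the change of low genes. Whole reads were recovered for the 16652 genes that the authors compared. They came to between 40356723 and 57269984 per library, deeper in the ETS1 libraries. A tested member had between 187 and 13479 reads in a library. The squamous markers KRT5, KRT14, KRT6A, TP63 and DSG3 were at or below 0.0165 FPKM in every library, and of the 8 squamous markers measured only SOX2 averaged at least 1 FPKM. Of 4 markers of simple epithelia, KRT8, KRT18 and EPCAM averaged at least 1 FPKM and KRT19 was at most 0.0224 FPKM in any library, and the summed level of the 3 leukocyte markers was at most 0.0926 FPKM. SOX2 was higher with ETS1 (log2 change 0.25, limma adjusted p = 0.0301), and the squamous list summed to 3.38 and 3.79 FPKM in the controls and 4.70 and 4.83 FPKM with ETS1. KRT8 was also higher (log2 change 0.62, limma adjusted p = 0.000591) and KRT18 lower (-0.29, 0.00223). Of 4 fibroblast markers only COL1A1 averaged at least 1 FPKM, and it was higher with ETS1 (0.30, limma adjusted p = 0.00599), with a summed level of the list of 2.08 to 2.22 FPKM in the controls and 2.85 to 2.94 FPKM with ETS1. The part of these differences in the values of the members was not tested.

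Most of the mitochondrial ribosomal protein genes were lower in the cells that carried ETS1. Of 73 members with a mean of at least 1 FPKM, 58 fell, 1 rose and 14 did not pass the test (limma, Benjamini-Hochberg adjusted p under 0.05 over 14306 genes). Over all tested genes 28.4% were called lower, 30.7% higher and 59.1% in either direction. The median log2 change of the members was -0.26, with a middle range from -0.37 to -0.15, whereas the median of all tested genes was 0.02. In the authors' deposited table, in which 25.9% of genes were called lower, the same 58 members were lower. Both ETS1 libraries were below both controls for 61 members and above both for 3, against 38.9% and 43.1% of all tested genes.

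**Figure D1:**
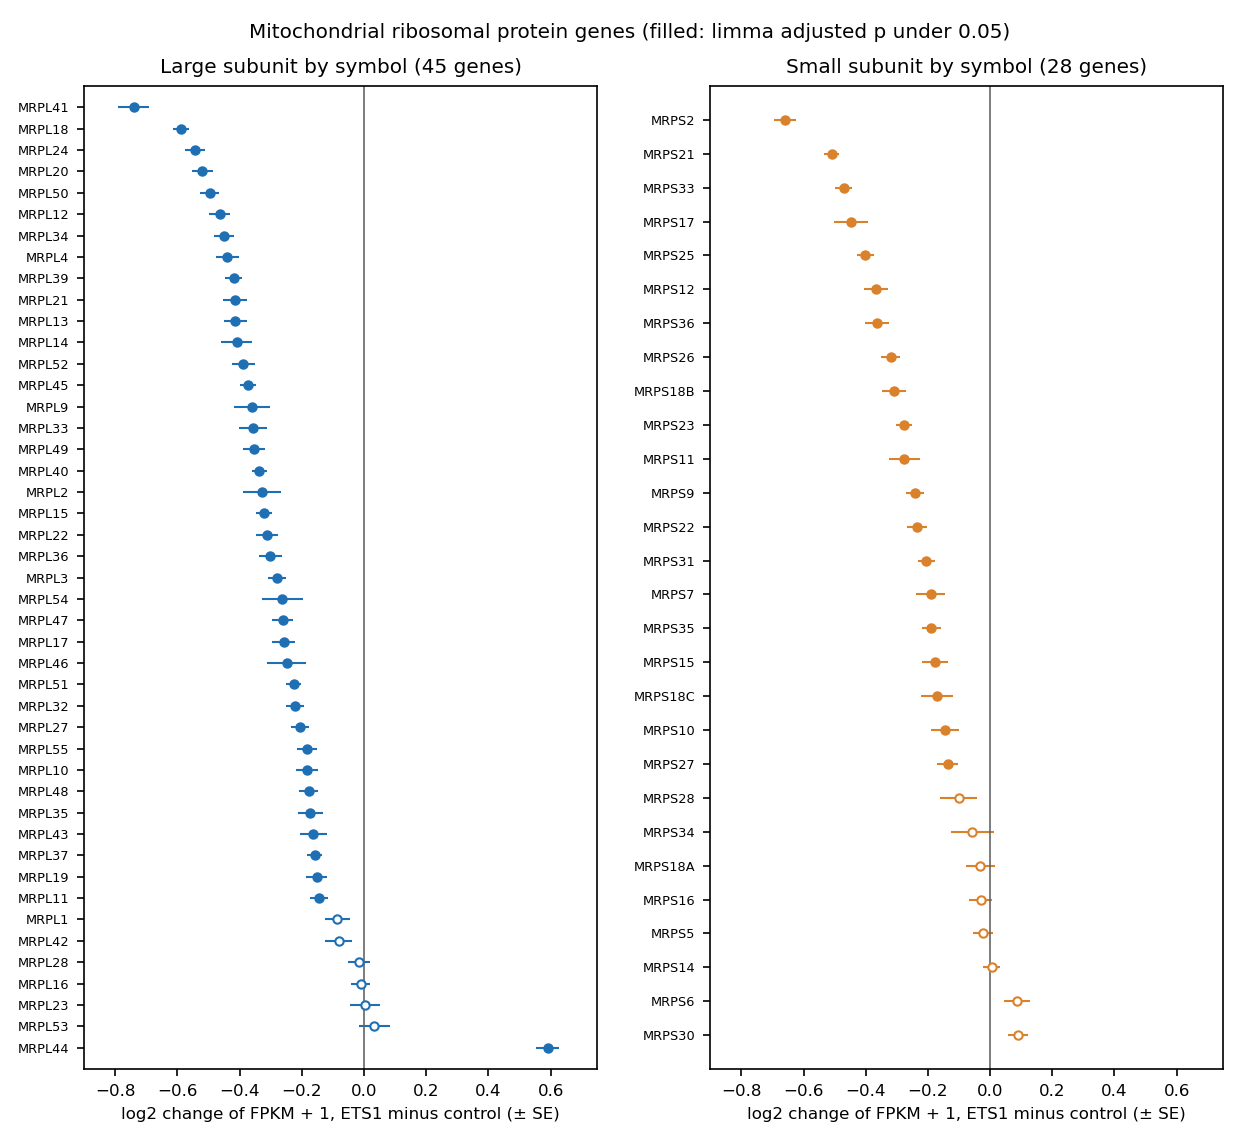
Log2 change of FPKM + 1 (ETS1 minus control, horizontal axis) for every tested member, ranked within the large and the small subunit, with the standard error as a bar and filled points for limma adjusted p under 0.05. Nearly all points lie left of 0, from MRPL41 at -0.74, and MRPL44 alone lies far to the right at 0.59.

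The falls were moderate and were alike in the 2 libraries of a group. Summed over all 76 members, the level was 2934 and 2984 FPKM in the controls and 2399 and 2371 FPKM with ETS1, a fall of 19.4%. Both ETS1 sums were below both control sums by far more than the 2 libraries of a group differed (SD 35.8 in controls and 20.2 with ETS1, n = 2). With 2 libraries against 2, an exact two-sided permutation test of any 1 such value cannot go below p = 0.33. As reads, the tested members took 0.616% and 0.623% of the recovered reads in the controls and 0.512% and 0.506% with ETS1. The median member deviated from its own control mean by -0.24 and -0.26 on the log2 scale in ETS1 libraries 1 and 2.

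**Figure D2:**
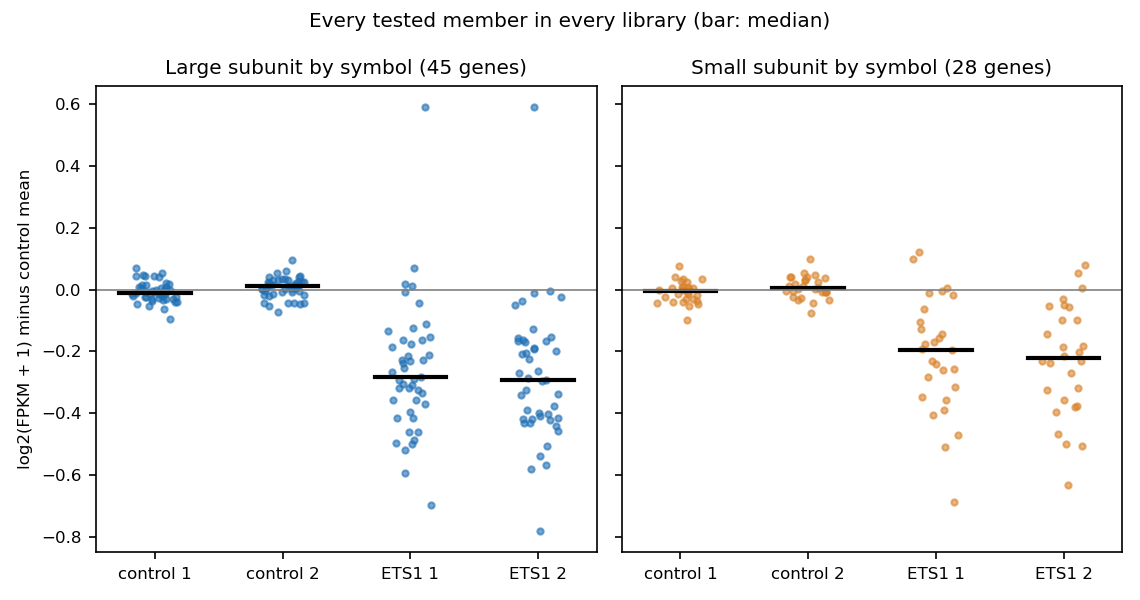
Log2(FPKM + 1) minus the control mean (vertical axis) for every tested member in each of the 4 libraries, large subunit on the left and small subunit on the right, with the median as a bar. The medians of the ETS1 libraries lie at -0.28 and -0.29 for the large subunit and at -0.19 and -0.22 for the small subunit.

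Genes of both subunits fell. Of 45 tested MRPL genes 38 fell, 1 rose and 6 did not pass the test, with a median log2 change of -0.28. Of 28 tested MRPS genes 20 fell, none rose and 8 did not pass, with a median of -0.20. The difference of the medians was -0.08 and is given as a description, with no test. It shrank to -0.017 under quantile normalization, and to -0.058 when each gene was counted in the subunit in which its protein sits. Summed levels of MRPL genes went from 1875 and 1906 FPKM in the controls to 1524 and 1502 FPKM with ETS1, a fall of 19.96%. For MRPS genes the sums went from 1059 and 1078 FPKM to 875 and 869 FPKM, a fall of 18.4%. The ratio of the MRPL sum to the MRPS sum was 1.77 and 1.77 in the controls and 1.74 and 1.73 with ETS1.

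Members of bacterial descent and members added later both fell. Among members with a bacterial homolog, 35 of 44 fell, with a median log2 change of -0.26. Among proteins counted as specific to mitochondrial ribosomes, 22 of 28 fell, with a median of -0.24. MRPS18A and MRPS18B, paralogs of MRPS18C, were counted there, and MRPS18C with the bacterial homologs. In the large subunit 25 of 29 with a bacterial homolog and 13 of 18 without one fell. In the small subunit the order was the other way, with 10 of 15 and 9 of 10.

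MRPL41, a mitochondrion-specific protein of the large subunit that is also known to bind BCL2, had the largest fall on the deposited scale. Its level was 109 and 117 FPKM in the controls and 69.3 and 65.3 FPKM with ETS1 (ratio 0.595, log2 change -0.74, SE 0.050, limma adjusted p = 0.000711). Both ETS1 libraries lay below both controls. The order depended on the processing: with the change of chromosomal neighbours removed, as described below, 24 members, led by MRPL18 (-0.71) and MRPS21 (-0.63), fell by more than MRPL41 (-0.36), and with the length and GC trend removed MRPL50 (-0.66) exceeded MRPL41 (-0.60). MRPL18, a protein of the central protuberance, stood at 133 and 135 FPKM in the controls and at 88.3 and 89.1 FPKM with ETS1 (log2 change -0.59, SE 0.026, limma adjusted p = 0.000462). MRPL24, a homolog of a bacterial protein near the mouth of the exit tunnel, went from 67.6 and 69.9 FPKM to 47.6 and 46.1 FPKM (log2 change -0.54). For each of these genes the 2 ETS1 libraries were close to each other and the groups did not overlap.

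MRPL20, whose bacterial homolog binds ribosomal RNA early in assembly, measured 35.1 and 36.3 FPKM in the controls and 24.98 and 24.3 FPKM with ETS1 (log2 change -0.52). MRPL50, which has no bacterial homolog, went from 17.3 and 16.9 FPKM to 11.9 and 11.8 FPKM (log2 change -0.50). MRPL12, the stalk protein that recruits translation factors and has been reported to bind the mitochondrial RNA polymerase, was at 27.4 and 27.1 FPKM in the controls and 19.0 and 19.97 FPKM with ETS1 (log2 change -0.46). With the length and GC trend removed MRPL12 was at -0.30 and still passed the limma test. In all 3 genes the groups did not overlap. MRPL12 shares 68.2% of its exon bases with AC139530.2 on the same strand (GENCODE 29), and how reads of such overlaps were counted is not given in the sources used here. Over all members, 14 share at least 20% of their exon bases with other genes and 35 share none, and not every overlap is named here.

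MRPL51 and MRPL37, which with MRPL18 are the 3 most abundant MRPL genes by the mean of all 4 libraries, fell by less than MRPL18. MRPL51 was at 132 FPKM in both controls and 113 FPKM in both ETS1 libraries (log2 change -0.23, SE 0.024, limma adjusted p = 0.00186). Its change was -0.083 under quantile normalization, -0.12 with length and GC removed and -0.36 with neighbours removed, and it passed in each. MRPL37 was at 103 FPKM in both controls and at 92.5 and 91.9 FPKM with ETS1 (log2 change -0.16), but under quantile normalization its change was -0.016 (limma adjusted p = 0.569). It was -0.073 with length and GC removed and -0.26 with neighbours removed, and passed in both. MRPL46, the lowest tested member, had 1.617 and 1.602 FPKM in the controls and 1.13 and 1.26 FPKM with ETS1 (log2 change -0.25, limma adjusted p = 0.0233), resting on 418 to 461 reads per library. Its call was lost when any 1 library was left out (limma adjusted p from 0.053 to 0.114) and without the level filter (0.0811). The other MRPL genes that fell had log2 changes between -0.45 for MRPL34 and -0.15 for MRPL11, whose call held in 12 of 15 alternative fits (largest limma adjusted p = 0.413). In order of their change, those between were MRPL4, MRPL39, MRPL21, MRPL13, MRPL14, MRPL52, MRPL45, MRPL9, MRPL33, MRPL49, MRPL40, MRPL2, MRPL15, MRPL22, MRPL36, MRPL3, MRPL54, MRPL47, MRPL17, MRPL32, MRPL27, MRPL55, MRPL10, MRPL48, MRPL35, MRPL43 and MRPL19. Of these, MRPL43 and MRPL54 kept their call in 10 of 15 alternative fits, MRPL19 and MRPL35 in 12, MRPL10 and MRPL55 in 13, and MRPL2 and MRPL48 in 14, with the largest limma adjusted p between 0.057 (MRPL2) and 0.23 (MRPL55).

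MRPL44, which has an RNase III-type fold and is mutated in a mitochondrial cardiomyopathy, was the 1 member that rose. It stood at 18.4 and 19.5 FPKM in the controls and at 28.996 and 29.015 FPKM with ETS1 (ratio 1.53, log2 change 0.59, SE 0.037, limma adjusted p = 0.000648). The authors' deposited table gives it a log2 fold change of 0.58. Behind these values stood 1298 and 1506 control reads against 2908 and 2871 from the ETS1 libraries.

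The remaining large-subunit genes did not pass the test. MRPL28, a homolog of a bacterial protein, was at 38.2 and 40.5 FPKM in the controls and 39.1 and 38.6 FPKM with ETS1, so its groups overlapped. MRPL16 was at 44.4 and 44.5 FPKM and then 44.9 and 43.4 FPKM, and MRPL23, which lies at the exit tunnel in bacteria, was at 25.8 and 28.1 FPKM and then 27.3 and 26.7 FPKM. MRPL53 was low, at 3.44 and 3.65 FPKM in the controls and 3.77 and 3.53 FPKM with ETS1, and shares 45.2% of its exon bases with CCDC142. With the length and GC trend removed MRPL53 (log2 change 0.16, limma adjusted p = 0.0263) and MRPL28 (0.096, 0.0296) were called higher, as was MRPL16 under quantile normalization (0.093, 0.0467). MRPL42 was at 19.3 and 18.1 FPKM in the controls and 17.2 and 18.01 FPKM with ETS1 (log2 change -0.08, limma adjusted p = 0.165), and passed with its neighbours on the chromosome removed (log2 change -0.25), with length and GC removed (-0.19) and with voom on recovered reads (-0.11). MRPL1 had a log2 change of -0.09 (limma adjusted p = 0.118).

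**Figure D3:**
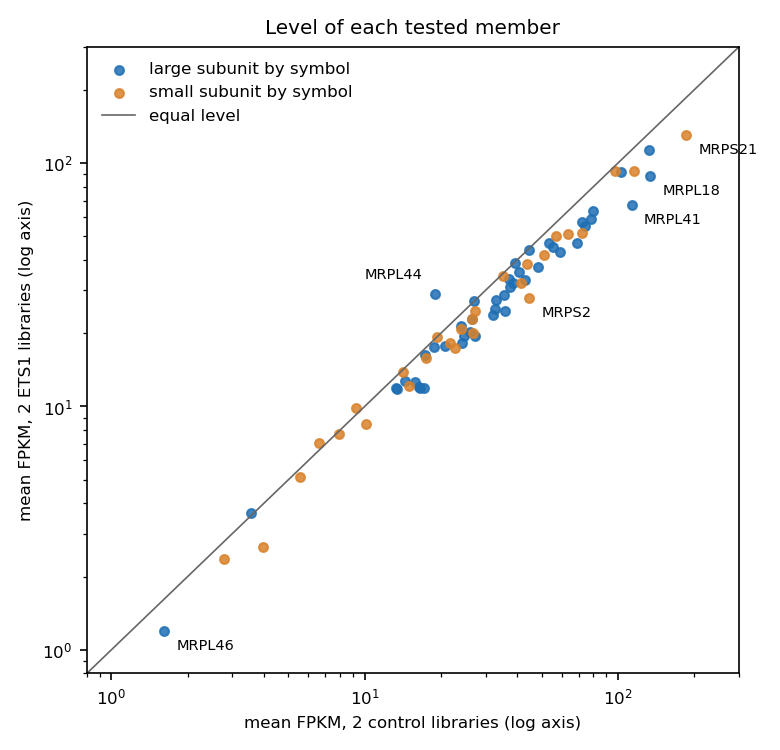
Mean FPKM of each tested member in the 2 ETS1 libraries (vertical, log axis) against the 2 control libraries (horizontal, log axis), coloured by subunit, with a line at equal level. Members from 1.61 FPKM (MRPL46) to 186 FPKM (MRPS21) in the controls lie mostly under the line, and MRPL44 lies above it.

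In the small subunit MRPS2, which has a bacterial homolog, fell most on the deposited scale, though with neighbours removed 8 MRPS genes fell by more. It was at 45.5 and 43.8 FPKM in the controls and 27.4 and 28.5 FPKM with ETS1 (ratio 0.625, log2 change -0.66, SE 0.035, limma adjusted p = 0.000524). MRPS21, the most abundant member, was at 186 FPKM in both controls and 130 FPKM in both ETS1 libraries (log2 change -0.51, SE 0.024, limma adjusted p = 0.000482). The libraries of a group differed for MRPS21 by an SD of only 0.121 FPKM in the controls and 0.193 FPKM with ETS1. MRPS33, a mitochondrion-specific protein, went from 71.0 and 72.9 FPKM to 51.6 and 51.7 FPKM (log2 change -0.47).

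MRPS17, whose bacterial homolog binds ribosomal RNA, was low and fell, from 3.92 and 4.01 FPKM to 2.79 and 2.51 FPKM (log2 change -0.45, limma adjusted p = 0.00272), and it shares 27.003% of its exon bases with AC092647.5 and NIPSNAP2 on the same strand. MRPS26, a mitochondrion-specific protein among the 3 most abundant MRPS genes, was at 113 and 118 FPKM in the controls and 93.0 and 92.3 FPKM with ETS1 (log2 change -0.32, limma adjusted p = 0.00155). Under quantile normalization the falls of the abundant MRPS21 (-0.30), MRPS33 (-0.31), MRPS26 (-0.16) and MRPS18B (-0.16) were smaller and still passed. MRPS12, which takes part in decoding and holds an ETS core shown above, had a log2 change of -0.37. MRPS25, MRPS23, MRPS11, MRPS9, MRPS22, MRPS31, MRPS7, MRPS35, MRPS15 and MRPS10 also fell, by less than MRPS17. The smallest fall among MRPS genes was that of MRPS27, with a log2 change of -0.14. The calls of MRPS27 and MRPS10 held in 9 and 8 of 15 alternative fits (largest limma adjusted p = 0.119 and 0.253). MRPS7 and MRPS15 kept theirs in 11 (0.097 and 0.451), and MRPS11 and MRPS35 in 14.

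Members of the small subunit that did not pass the test were mostly close to 0. MRPS34 was at 90.3 and 104 FPKM in the controls and 92.6 and 93.3 FPKM with ETS1, and its controls differed more from each other (SD 9.43 FPKM) than the group means did. Without control library 1 it was called lower (log2 change -0.16, limma adjusted p = 0.0166). MRPS5 was at 13.9 and 14.4 FPKM and then 14.0 and 13.8 FPKM, and MRPS14 was at 19.4 and 19.2 FPKM and then 19.4 FPKM in both ETS1 libraries. MRPS6 had higher values with ETS1, at 7.25 and 6.86 FPKM against 6.52 and 6.65 FPKM, but a limma adjusted p of 0.124. MRPS16 and MRPS28 had log2 changes of -0.03 and -0.10.

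The symbols of a few members do not match where their proteins sit. Of the paralogs MRPS18A, MRPS18B and MRPS18C, MRPS18A is found in the large subunit. MRPS18B was at 63.7 and 63.4 FPKM in the controls and fell to 52.9 and 49.4 FPKM (log2 change -0.31, limma adjusted p = 0.00302). MRPS18C was at 2.67 and 2.88 FPKM and fell to 2.38 and 2.32 FPKM (log2 change -0.17, limma adjusted p = 0.042), while MRPS18A, at 7.61 and 8.19 FPKM and then 7.83 and 7.58 FPKM, did not pass the test (limma adjusted p = 0.588) but was called higher with the length and GC trend removed (0.12, limma adjusted p = 0.0453). The call of MRPS18C was lost without the level filter (limma adjusted p = 0.112), and also when control library 2 or either ETS1 library was left out (0.12 to 0.17). MRPS18C shares 40.2% of its exon bases with another gene, and MRPS18A shares 47.0% with RSPH9. The difference between the paralogs was not tested.

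MRPS30, also a protein of the large subunit, was at 9.19 and 9.22 FPKM in the controls and 9.94 and 9.78 FPKM with ETS1 (log2 change 0.09, limma adjusted p = 0.0598). With the length and GC trend removed it was called lower (-0.16, limma adjusted p = 0.0224). MRPS36, now known as a subunit of the 2-oxoglutarate dehydrogenase complex, fell from 42.8 and 40.4 FPKM to 32.5 and 31.7 FPKM (log2 change -0.36, limma adjusted p = 0.00182). Counted by where the protein sits, 38 of 47 tested genes of the large subunit fell and 19 of 25 of the small subunit fell.

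Of the 76 members, 3 lay under the level filter and were not tested. MRPL38 was at 1.07 and 1.02 FPKM in the controls and 0.818 and 0.884 FPKM with ETS1. MRPS24 was at 0.151 and 0.199 FPKM and then 0.207 and 0.169 FPKM, and MRPL30 was listed at 0 in 3 libraries and at 0.00489 FPKM in ETS1 library 1. These genes share 41.1%, 23.2% and 19.5% of their exon bases with other genes in GENCODE 29.

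The position of a member on its chromosome went with part of the change in a few cases. For each tested member, the median log2 change of the 50 nearest tested protein-coding genes was taken. The median of these neighbourhood values was 0.03, and 69 of 73 members lay below their own neighbourhood. The neighbours of MRPL41 and of MRPS2, both near the end of chromosome 9 (chr9:137551199-137552555 and chr9:135499984-135504673, GRCh38), had medians of -0.38 and -0.30. With those removed, the log2 changes were -0.36 for MRPL41 and -0.36 for MRPS2, and both still passed the limma test. The neighbours of MRPL44 (chr2:223957404-223967714) had a median of 0.32, which left 0.27 for MRPL44. MRPL46 and MRPS11 start 34 bases apart on chromosome 15, and with neighbours removed MRPL46 was at -0.06 (limma adjusted p = 0.361) and MRPS11 at -0.08 (0.148). MRPS10 also lost its call (0.0791). Over all members, 60 were called lower after the removal, since MRPL1, MRPL42, MRPS14, MRPS16 and MRPS28 then passed. Copy number of these regions was not measured, and its part in the values was not tested.

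**Figure D4:**
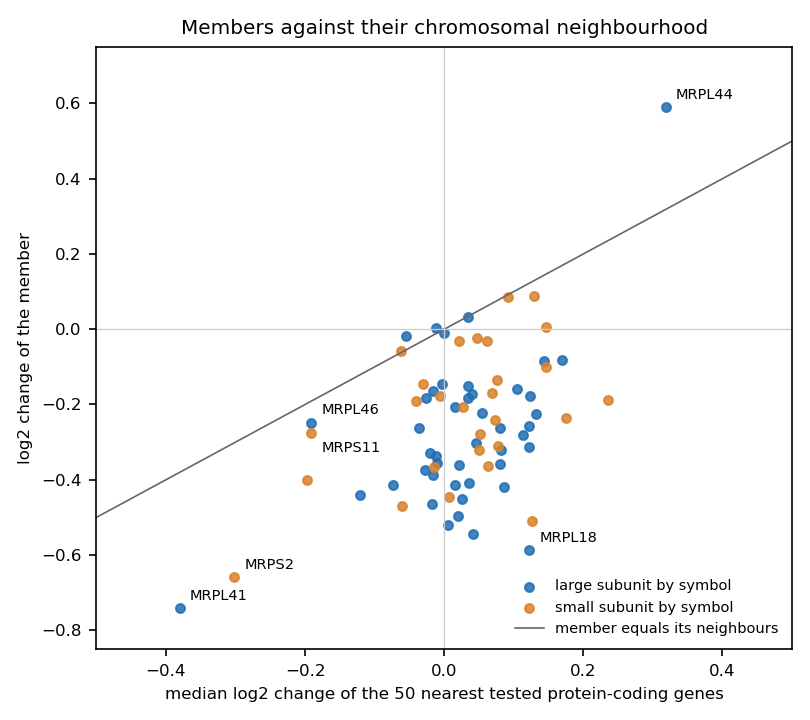
Log2 change of each tested member (vertical axis) against the median log2 change of its 50 nearest tested protein-coding genes (horizontal axis), with a line where the member equals its neighbours. Of 73 members 69 lie under the line, and MRPL41, MRPS2 and MRPL44 lie where the neighbours moved in the same direction.

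Many members share their start region with a gene on the opposite strand. In GENCODE 29, 28 members start within 1000 bases of such a gene, and 27 of the partners are not members. Of those partners 8 rose, 4 fell, 8 did not pass the test and 7 were not tested, with a median log2 change of 0.09 among the tested ones, beside 30.7% higher and 28.4% lower over all tested genes. MRPL27 and EME1, a nuclease subunit of DNA repair, start 6 bases apart and had log2 changes of -0.21 and 0.25. MRPL21 and the helicase gene IGHMBP2, 7 bases apart, had -0.42 and 0.12, and MRPL51 and the condensin gene NCAPD2, 485 bases apart, had -0.23 and 0.36. MRPL51 shares 31.3% of its exon bases with NCAPD2, and whether reads were counted by strand is not given in the sources used here. MRPL50 had -0.50 and its partner ZNF189 had 0.22. Partners that fell with the member were TCP1 beside MRPL18 (-0.21), NDUFS6 beside MRPL36 (-0.40), FAU beside MRPL49 (-0.51) and PPP1R10 beside MRPS18B (-0.12). A lower member and a higher partner thus occurred side by side at several of these start regions, and the difference within a pair was not tested.

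Proteins of the mitochondrial ribosome with other names also fell in most cases. Of 7 such genes 6 fell and none rose, with a median log2 change of -0.30, beside 28.4% lower and 30.7% higher over all tested genes. GADD45GIP1, a large-subunit protein also described as a cell cycle inhibitor, was at 109 and 122 FPKM in the controls and 90.5 and 84.99 FPKM with ETS1 (log2 change -0.39, limma adjusted p = 0.00595). MRP63, also in the large subunit, had a log2 change of -0.40, and ICT1, a peptidyl-tRNA hydrolase built into the large subunit, had -0.36. AURKAIP1 did not pass the test (log2 change -0.04).

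Factors that work with the ribosome were mixed, and are set beside the 28.4% of all tested genes called lower and the 30.7% called higher. Of 14 mitochondrial translation factors 8 fell and 3 rose, with a median log2 change of -0.17. MRRF, which recycles ribosomes after termination, was at 22.3 and 23.3 FPKM in the controls and 15.4 and 15.6 FPKM with ETS1 (log2 change -0.53, limma adjusted p = 0.000651). MTFMT, which formylates the initiator methionine, had a log2 change of -0.51, and the elongation factor TUFM had -0.31. GFM2, MTRF1L and GUF1 were the factors that rose. Of 30 assembly factors 14 fell and 4 rose, with a median of -0.11. The pseudouridine synthase RPUSD3 was at 21.5 and 22.1 FPKM in the controls and 13.3 and 12.5 FPKM with ETS1 (log2 change -0.71), YBEY had -0.61 and MPV17L2 had -0.58.

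Genes for charging transfer RNAs and handling mitochondrial RNA are set beside the 28.4% of all tested genes called lower and the 30.7% called higher. Of 20 tested genes for mitochondrial aminoacyl-tRNA synthetases and related enzymes 6 fell and 2 rose, with a median log2 change of -0.09. MARS2 (-0.56), LARS2 (-0.40) and KARS (-0.34), which charge methionine, leucine and lysine, fell most. Of 13 tested genes for mitochondrial transcription and RNA stability 7 fell and 3 rose, with a median of -0.16. HSD17B10, a subunit of the mitochondrial RNase P, had -0.57, and SLIRP, which stabilises mitochondrial messenger RNA, had -0.57. TRMT10C, another RNase P subunit, went the other way with 0.48. Of 9 tested regulators of mitochondrial biogenesis 3 fell and 1 rose, and for these and the aminoacyl-tRNA synthetases the share lower was near that of all tested genes. GABPA, an ETS-family factor, was at 7.997 and 6.902 FPKM in the controls and 10.8 and 12.9 FPKM with ETS1 (log2 change 0.60, limma adjusted p = 0.00671), while ESRRA had -0.33 and YY1 had -0.19.

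The RNAs of the mitochondrial genome moved opposite to the genes for the ribosome that translates them. All 15 measured mitochondrially encoded genes rose, with a median log2 change of 0.94; 13 were called without the level filter and 12 under quantile normalization. MT-ND1, a complex I subunit, was at 1185 and 1214 FPKM in the controls and 3180 and 3024 FPKM with ETS1 (log2 change 1.37, SE 0.040, limma adjusted p = 0.000369). MT-ATP8 and MT-CO1 had log2 changes of 1.19 and 1.18. The ribosomal RNAs that the member proteins bind rose unequally, MT-RNR2 of the large subunit by 1.07 and MT-RNR1 of the small subunit by 0.41 on the log2 scale. Their mean levels in the controls were 1911 and 477 FPKM, below MT-CO2 at 6465 FPKM. How fully the libraries captured ribosomal RNA was not tested. The 15 mitochondrially encoded genes took 3.03% and 3.06% of recovered reads in the controls and 5.57% and 5.71% with ETS1. FPKM is relative to the library total, and 58 members were called lower with trimmed-mean scaling and 47 under quantile normalization. The part of the mitochondrial reads in the lower values of the members was not tested.

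**Figure D5:**
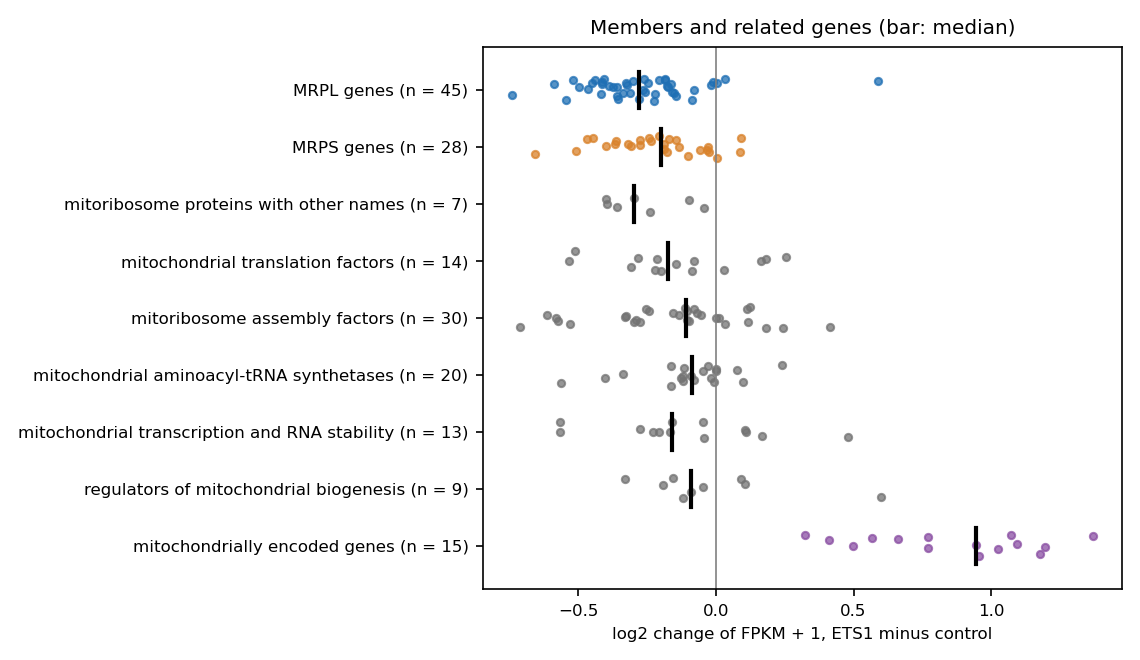
Log2 change of FPKM + 1 (ETS1 minus control, horizontal axis) for each tested gene of the members and of 7 related gene lists, with the number of tested genes in brackets. The members and the other mitochondrial ribosome proteins lie mostly left of 0, and the 15 mitochondrially encoded genes all lie right of it.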

How the data were processed

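RNA-seq values were available for 4 libraries (2 with ETS1, 2 with the empty backbone), grouped by title. The authors deposited FPKM per gene for each library. A further deposited table by the authors holds a normalized mean count (a size-factor scaled signal), log2 fold changes and p-values of their own DESeq2 comparison of 16652 genes. The submitters' processing notes name HISAT2, HTSeq, DESeq2 and hg38/GRCh38. Their versions, the annotation and the strand setting are not given in the sources used here. The files held no raw counts, so the planned count test was replaced by limma 3.58.1 (R 4.3.3) on log2(FPKM + 1) with an intensity trend, over 14306 genes with a mean of at least 1 FPKM, two-sided, Benjamini-Hochberg adjusted, threshold 0.05. This filter uses the mean over all 4 libraries.

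Whole reads were recovered from the steps of the low values: 99.3% of values of 2885 low genes and 99.5% of 8566 high genes lay within 0.05 of a whole number, against 10% by chance. Low genes were used to set the scale of the recovery, so only the high genes give a separate check. Libraries of 1 group differed beyond sampling noise (mean chi-square per gene 3.94 in controls and 3.94 with ETS1) and were kept as separate replicates. The fit was tested on simulated data. Neighbourhoods, exon overlap and start distances used GENCODE 29, and promoter windows and sequences came from RefSeq. No window was available for MRPL2, MRPL10, MRPL13, MRPL15, MRPL21, MRPL23, MRPL35, MRPS28 and MRPS36. Subunit and descent of each protein were assigned from general knowledge. Reads of near-identical pseudogenes cannot be separated with certainty: of 66 pseudogene names of members 42 were at 0 and 2 averaged at least 1 FPKM (MRPL3P1 and MRPL45P2, 7.10% and 14.1% of the parent gene's level).

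Members named with values were the 6 highest and 6 lowest tested MRPL genes and the 4 highest and 4 lowest MRPS genes by log2 change, the 3 most and 2 least abundant of each subunit, those under the filter, MRPL12, and those whose symbol and place differ. Members that start within 1000 bases of a gene on the other strand could be named with that gene. From each related list the 3 genes with the largest change were named. MRPL1, MRPL11, MRPL34, MRPL52, MRPS10, MRPS11, MRPS12, MRPS16, MRPS27 and MRPS28 and a few genes of the lists were named after their values were seen. So were the members given with the number of alternative fits in which they kept their call. The members and lists were chosen with earlier results of these data known. Alternatives changed the pseudocount, filter, scaling, prior, tool, position, length and GC correction, replicate block, subunit assignment and single libraries.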

Additional observations from a re-analysis of the deposited data

How the results depend on the processing

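Across 15 alternative fits all 59 called members kept their direction wherever they were tested (3 were left out at a mean of at least 5 FPKM), and 40 were called in all 15. The number of members called lower was 48 without a filter on low values, 47 under quantile normalization, 59 with limma voom on recovered reads, and 46 to 56 when 1 library was left out. The same-numbered libraries did not deviate together (correlation -0.0456 over 14306 genes), so the numbers were not shown to pair them. With the replicate block 54 members were lower, and MRPL46 (limma adjusted p = 0.051), MRPS10 (0.0861), MRPS18C (0.0843) and MRPS27 (0.0543) lost the threshold. Of all genes, 3712 were higher and 3571 lower under the block.

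The median log2 change of MRPL genes was -0.31 with a pseudocount of 0.1, -0.30 at a mean of at least 5 FPKM, -0.18 under quantile normalization, -0.32 in the authors' deposited table, -0.33 with voom, -0.34 with neighbours removed and -0.25 with the length and GC trend removed. For MRPS genes it was -0.22 with a pseudocount of 0.1, -0.22 with trimmed-mean scaling, -0.16 under quantile normalization, -0.23 in the authors' deposited table, -0.25 with voom and -0.24 with neighbours removed, and -0.19 to -0.23 with 1 library left out. The large minus small difference was -0.10 at 5 FPKM, -0.017 under quantile normalization, -0.10 with neighbours removed, -0.059 with length and GC removed and -0.058 by the place of the protein. With 1 library left out it ranged from -0.088 to -0.052. At 5 FPKM 2562 genes were called higher, since fewer were tested, and 2845 to 3962 with 1 library left out. Members called higher numbered 2 under quantile normalization and 4 with length and GC removed.

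Among uncalled members near 0, some of which then passed the threshold, the sign changed for MRPL23 (-0.014 trimmed-mean, -0.021 authors' deposited table, -0.021 voom), MRPS14 (-0.012, -0.017, -0.018, then -0.14 with neighbours removed and -0.019 with length and GC removed), MRPL28 (0.092 quantile, 0.039 neighbours, 0.096 length and GC), MRPL16 (0.093 quantile, 0.072 length and GC), MRPL53 (-0.018 quantile, -0.00036 neighbours), MRPS34 (0.081 quantile, 0.0050 neighbours, 0.10 length and GC), MRPS6 (-0.0049 neighbours), MRPS30 (-0.039 neighbours, -0.16 length and GC), MRPS18A (0.12 length and GC) and MRPS16 (-0.093 to 0.083 over 15 fits). The cause was not tested. With 1 library left out their ranges spanned 0: MRPL23 from -0.058 to 0.065, MRPL53 from -0.0037 to 0.070, MRPL28 from -0.057 to 0.023, MRPS14 from -0.00095 to 0.012, MRPS34 from -0.16 to 0.042, MRPS18A from -0.079 to 0.017 and MRPL16 from -0.035 to 0.013.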
